A study of Mus musculus with 2 samples.

Results

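Intronic CTCF peaks in short genes were defined as peaks of the optimal list on chromosomes 1 to 19 whose summit lay inside a protein-coding gene under 20 kb long and inside no longer protein-coding gene. The summit also had to lie outside every annotated exon and more than 1 kb from every annotated transcript start. Of the 57220 peaks of the list, 1748 (3.05%) met this rule. They lay in 1409 of the 8156 genes that could hold one (17.3%), and neither their signal nor their sequence was used to choose them. CTCF was measured by chromatin immunoprecipitation with sequencing (ChIP-seq) in whole liver of newborn B6NCrl mice at postnatal day 0. The series is 1 group of 2 replicates, with no treatment and no second genotype. Both came from pulverized livers of several pooled dissections. Their biosample and donor entries are the same, so differences between them may be technical only, and the mice's sex was not collected. The control experiment that the labels name was not used here.

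CTCF, a protein with a row of zinc fingers, recognises a DNA motif that has a direction, and it stops the cohesin ring as it extrudes chromatin loops, so that the strand of a motif sets the side on which a loop is anchored. Inside genes, CTCF sites are known from single examples to slow RNA polymerase and to alter exon inclusion. Newborn liver holds hepatocytes and blood-forming cells side by side, and a peak list from the whole organ does not tell in which of them a site is bound.

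The strongest short-gene intronic peak is shown first, since it carries a pair of identical CTCF cores. It lay in the third of 7 introns of Pink1, which encodes a kinase that marks damaged mitochondria, at chr4:138319503-138319911 on mm10, and the bases around its summit follow from the GRCm38 reference, with both cores in capitals.
Pink1, chr4:138319594-138319844, plus strand: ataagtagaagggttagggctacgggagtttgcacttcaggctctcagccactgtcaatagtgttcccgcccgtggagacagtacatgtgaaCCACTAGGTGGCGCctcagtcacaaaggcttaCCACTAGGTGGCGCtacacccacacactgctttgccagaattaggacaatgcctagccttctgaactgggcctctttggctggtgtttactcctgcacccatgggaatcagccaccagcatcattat
Introns are counted in 1 annotated transcript per peak, the principal one where it spans the summit and otherwise another, so other transcripts of a gene can give another number. Both cores matched the 14-base CTCF consensus without a mismatch, lay on the plus strand, against the direction of the gene, and began 32 bases apart. The core centres lay at -26.5 and 5.5 bases from the summit. Pink1 held a second intronic peak 1027 bases away, with a signal of 308.6, whose single perfect core lay on the minus strand, along the gene.

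The next 7 sequences show how the same site varied between strong peaks, with 10 bases on each side of the core. The core is in capitals and is written along its own strand, 5′ to 3′. Cpsf4l, Aanat, Tfap4 and Nenf had no mismatch, Eno1 and Sec1 had 1, and Scd2 had 2.
Cpsf4l, chr11:113703898-113703931, plus strand: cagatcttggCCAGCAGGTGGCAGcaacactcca
Aanat, chr11:116592597-116592630, minus strand: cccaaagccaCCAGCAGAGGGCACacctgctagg
Tfap4, chr16:4551198-4551231, plus strand: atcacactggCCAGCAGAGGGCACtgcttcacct
Nenf, chr1:191312588-191312621, plus strand: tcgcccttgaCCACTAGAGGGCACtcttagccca
Eno1, chr4:150240261-150240294, minus strand: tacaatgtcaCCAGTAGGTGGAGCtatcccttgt
Sec1, chr7:45682911-45682944, minus strand: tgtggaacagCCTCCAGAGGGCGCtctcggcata
Scd2, chr19:44295934-44295967, minus strand: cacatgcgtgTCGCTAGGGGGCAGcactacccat
The Aanat and Tfap4 peaks shared their whole core.

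The commonest single core among short-gene intronic peaks was not one of the perfect ones. It had 2 mismatches, at the fifth and the last position, and is in capitals in these 3 peaks with 20 bases on each side, written along the core.
Rtn2, chr7:19284952-19285005, plus strand: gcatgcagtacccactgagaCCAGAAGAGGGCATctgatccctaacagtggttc
Ube2s, chr7:4796161-4796214, minus strand: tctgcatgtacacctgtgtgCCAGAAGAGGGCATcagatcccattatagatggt
Prss32, chr17:23851513-23851566, plus strand: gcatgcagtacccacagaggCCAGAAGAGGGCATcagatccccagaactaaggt
This core was carried by 123 of 1276 short-gene intronic peaks with a single best core (9.64%, exact 95% interval 8.08 to 11.4), spread over 121 genes. It was carried by 9.34% of 9386 such peaks in mid-length genes and by 4.73% of 4162 in long genes (4.11 to 5.42). Of the 123 peaks, 117 had their summit in a soft-masked repeat, a share of 95.1%, against 28.2% of the short-gene intronic peaks with any other core. In rodents, copies of the B2 family of short interspersed elements are known to carry CTCF motifs, but the repeat family of these peaks was not annotated here.

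A strong peak did not need the core. The strongest one with no match at 2 or fewer mismatches within 50 bp of its summit lay in the last intron of Gm49510, and another in the third of 5 introns of Pttg1ip, and 50 bases to each side of the summit are given on the plus strand.
Gm49510, chr15:78915810-78915910, plus strand: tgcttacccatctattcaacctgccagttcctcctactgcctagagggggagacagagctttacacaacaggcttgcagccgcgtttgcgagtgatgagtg
Pttg1ip, chr10:77590983-77591083, plus strand: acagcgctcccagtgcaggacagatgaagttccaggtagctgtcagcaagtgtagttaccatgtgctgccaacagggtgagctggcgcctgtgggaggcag
The Gm49510 peak had a signal of 448.5, with 227.0 and 224.2 in replicates 1 and 2. The Pttg1ip peak had a signal of 438.1, with 229.6 and 208.6 in the replicates. The best match in each window had 3 mismatches.

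Short genes held more CTCF peaks per length of intron than longer genes. Intron sequence that a peak could fall in under the same rule, called eligible here, came to 39.96 Mb in genes under 20 kb, 404.7 Mb in mid-length genes (20 to under 200 kb) and 381.2 Mb in long genes (200 kb or more). Short genes had 43.7 peaks per Mb (exact 95% Poisson interval 41.7 to 45.8), mid-length genes had 32.4 (31.8 to 32.9) and long genes had 14.8 (14.5 to 15.2). In the strongest 57220 peaks of each replicate alone, short genes had 43.4 and 43.5 peaks per Mb, mid-length genes 32.1 and 32.3, and long genes 15.1 and 14.9. These gaps between classes were far wider than those between replicates. The eligible sequence also differed in base composition, with a GC share of 44.8% in short, 43.3% in mid-length and 41.2% in long genes, and the part of this in the density was not tested. Intervals here cover counting error over peaks only.

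**Figure D1:**
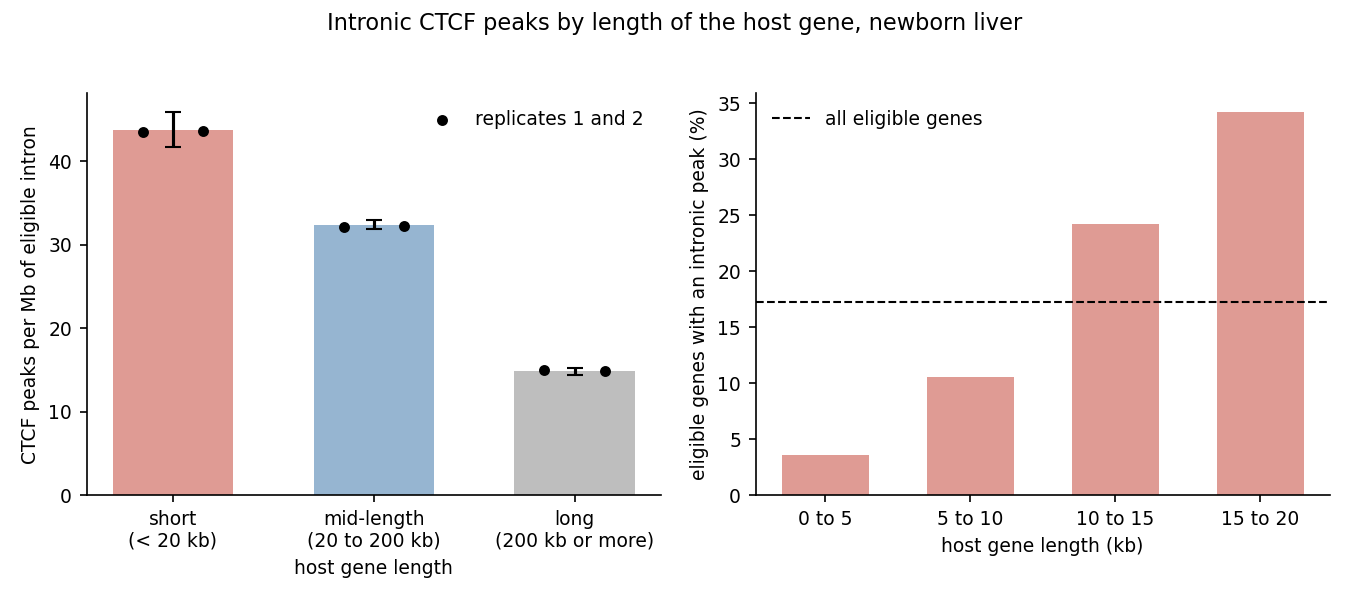
Left, CTCF peaks per Mb of eligible intron by length of the host gene. Bars are the optimal list, error bars exact 95% Poisson intervals and points the replicates alone, and short genes stood highest at 43.7 per Mb. Right, share of eligible genes with an intronic peak by gene length in kb, from 3.61% to 34.2%, beside the 17.3% of all eligible genes.

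Of 8156 protein-coding genes under 20 kb with any eligible intron sequence, 1409 held an intronic peak, which is the background of 17.3% for every count of genes below. A longer gene offers more intron, and the share was 3.61% in genes under 5 kb, 10.6% at 5 to 10 kb, 24.2% at 10 to 15 kb and 34.2% at 15 to 20 kb. Per Mb the same bands had 36.3, 39.0, 46.5 and 44.8 peaks. Most hosts held a single peak, namely 1120 genes, while 241 held 2, 46 held 3 and 2 held 4. The median host was 14.1 kb long, and the median intron with a peak was 3.14 kb long. The density differed between chromosomes, with the highest value on chromosome 15 (63.0 per Mb, 96 peaks) and the lowest on chromosome 14 (27.6 per Mb, 56 peaks).

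Short-gene intronic peaks were also stronger. The signal here is the value the authors deposited for each peak, on a scale that is not stated, and it is used only within a list. Its median was 82.9 in short genes (quartiles 33.5 and 207.4, range 4.21 to 654.9), 66.0 in mid-length genes and 61.9 in long genes, against 71.5 over all autosomal peaks of the list. A signal above that list median was found in 54.2% of short-gene peaks (948 of 1748), 47.7% of mid-length-gene peaks and 45.7% of long-gene peaks. The odds ratio was 1.30 against mid-length genes (95% interval 1.18 to 1.44, adjusted exact p = 6.47e-07) and 1.41 against long genes (1.26 to 1.57, adjusted exact p = 1.91e-09), by Fisher's exact test, two-sided, with Benjamini-Hochberg adjustment over the 20 tests made. Each replicate alone gave 54.6% and 54.2% for short genes, 48.1% and 47.7% for mid-length genes and 44.9% and 45.6% for long genes, so the gap exceeded the spread between replicates. Peaks of 1 gene or neighbourhood are not independent, so these p-values may be too small. With 1 peak taken per gene by position, the leftmost, the odds ratios were 1.21 and 1.51. In hosts under 10 kb the call against mid-length genes was lost (1.26, adjusted exact p = 0.0582). With only the strongest peak of each gene they turned to 0.619 and 0.214, where each long gene gives the strongest of many peaks (5657 in 880 genes) and each short gene of few.

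The 14-base CTCF core was looked for on either strand, with up to 2 mismatches, in the 50 bp to each side of a summit. It was found in 1343 of 1748 short-gene peaks (76.8%, exact 95% interval 74.8 to 78.8), 74.2% of mid-length-gene peaks and 75.9% of long-gene peaks. Over all autosomal peaks of the list the share was 71.2%. Windows displaced by 1 kb from short-gene summits held it in 3.38% of cases. The odds ratio against mid-length genes was 1.15 (1.02 to 1.30, adjusted exact p = 0.0245, Fisher's exact test). It was 1.08 and 1.10 in replicates 2 and 1 alone, where adjusted exact p was 0.202 and 0.142, and the call was also lost in hosts under 10 kb (1.18, adjusted exact p = 0.277), with the leftmost peak per gene (1.05, adjusted exact p = 0.570) and among GC-poor peaks (1.11, adjusted exact p = 0.253). Against long genes it was 1.05 (0.929 to 1.197, adjusted exact p = 0.423). The core share thus differed little between length classes, while the signal over the same core differed more. With no mismatch the median signal was 272.0 in short genes (167 peaks), 247.3 in mid-length genes and 180.6 in long genes. With 1 mismatch it was 136.4 in short genes (563 peaks), 110.8 in mid-length genes and 91.3 in long genes. With 2 mismatches it was 63.6 in short genes (613 peaks), 57.1 in mid-length genes and 50.1 in long genes. Among peaks with the core, 61.9% of short-gene peaks were above the list median, against 52.9% of long-gene peaks (odds ratio 1.45, adjusted exact p = 1.89e-08, Fisher's exact test, added after the data were seen).

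**Figure D2:**
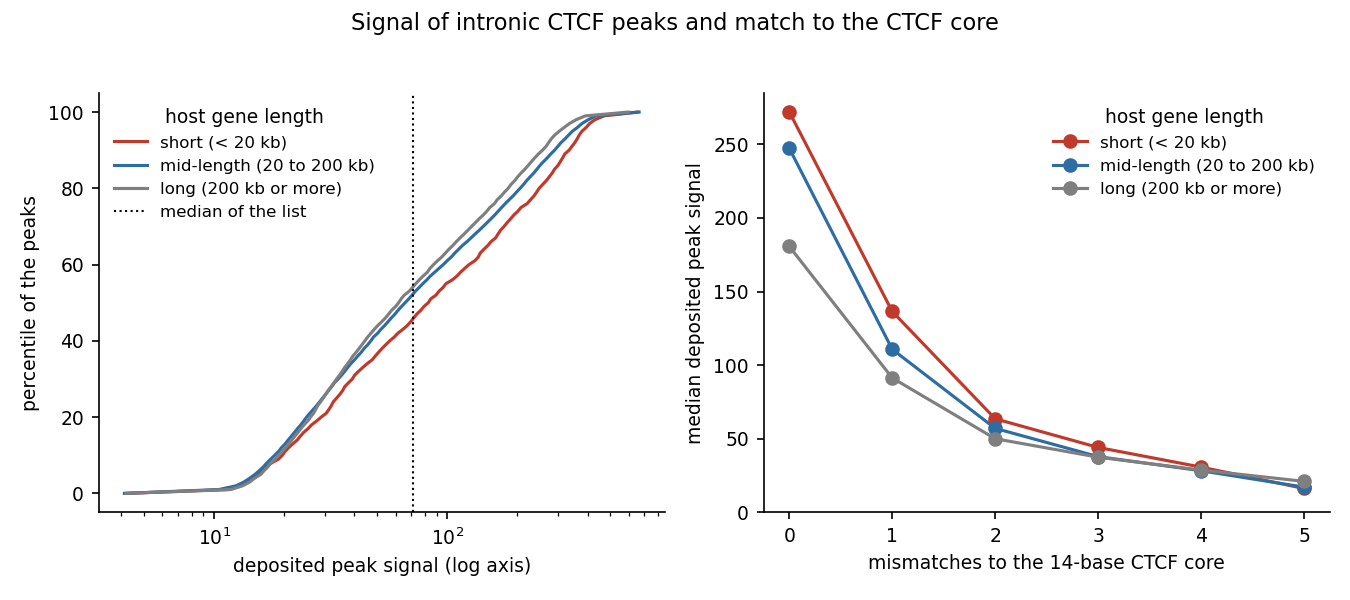
Left, percentile of the peaks against deposited signal (log axis) for 3 lengths of host gene, with the median of the list dotted. The short-gene curve lies to the right, with a median of 82.9 against 66.0 and 61.9. Right, median signal by number of mismatches to the 14-base CTCF core, from 272.0 with no mismatch to 16.3 with 5 in short genes.

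Within the core, the fifth position split the short-gene peaks. It was a mismatch in 503 of 1276 single best cores, or 39.4% (exact 95% interval 36.7 to 42.2), against 39.6% in mid-length genes and 30.9% in long genes (29.5 to 32.4). Replicates 1 and 2 alone gave 40.0% and 38.7% in short genes, against 30.7% and 30.8% in long genes. Short-gene peaks with that mismatch had a median signal of 68.4, against 162.2 for those that matched there. They lay in soft-masked repeats in 73.2% of cases, against 9.57% of those that matched. A mismatch at the last position was less frequent, at 327 of 1276, and its carriers had a median signal of 59.0, against 137.4 for the others. The core word of the Rtn2, Ube2s and Prss32 sequences above joins both mismatches, and its 123 carriers had a median signal of 49.5. A CG dinucleotide at positions 12 and 13 of the core was present in 350 short-gene peaks (27.4%), against 24.5% of long-gene peaks. Those 350 had a median signal of 162.7, against 94.8 for short-gene cores without it. These are descriptions of sequence, with no test.

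The core lay on the strand of the gene in a slightly larger share of short-gene peaks than of peaks in longer genes, a share that did not pass a test against an even split. Of 1276 single best cores in short genes, 671 (52.6%, exact 95% interval 49.8 to 55.4) lay on the host's strand, against 48.5% in mid-length genes and 48.2% in long genes. Against an even split, an exact binomial test, two-sided, gave an adjusted p of 0.0860, with 0.0806 to 0.853 under the alternatives. Against mid-length genes the odds ratio was 1.18 (1.05 to 1.32, adjusted exact p = 0.0110) and against long genes 1.19 (1.05 to 1.35, adjusted exact p = 0.0110), by Fisher's exact test. Both calls were lost when hosts were limited to genes under 10 kb, where 49.0% lay on the host's strand. They were also lost among summits 1 to 10 kb from a start, with odds ratios of 1.14 each and adjusted exact p of 0.0622 and 0.133. The share was 52.7% and 51.9% in replicates 2 and 1 alone.

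The surroundings of short-gene peaks differed from those of longer genes. A GC share of at least 50% within 100 bp of the summit was found in 44.3% of short-gene peaks. It was found in 37.8% of mid-length-gene peaks (odds ratio 1.31, adjusted exact p = 4.07e-07) and 33.5% of long-gene peaks (1.58, adjusted exact p = 1.60e-15). The eligible sequence itself had a GC share of 44.8% in short, 43.3% in mid-length and 41.2% in long genes. Around summits the median GC share was 48.8%, 47.8% and 47.3%, so the classes differed less there than in the eligible sequence. The part of this background in the GC gap between peaks was not tested. Another peak summit within 5 kb was found for 54.3% of short-gene peaks, 40.7% of mid-length-gene peaks (1.74, adjusted exact p = 3.64e-26) and 29.5% of long-gene peaks (2.84, adjusted exact p = 2.68e-76). The median distance to the nearest other summit was 4.39 kb in short genes, 6.87 kb in mid-length genes and 11.5 kb in long genes. Short-gene summits also lay closer to a transcript start, at a median of 2.96 kb against 7.25 kb in mid-length and 18.6 kb in long genes. Among summits 1 to 10 kb from a start, the odds ratios for another summit within 5 kb were smaller, at 1.57 and 2.20. The part of the peak density and of the nearness to starts in this gap was not tested. The summit lay in a soft-masked repeat in 32.0% of short-gene peaks, 31.0% of mid-length-gene peaks (1.05, 95% interval 0.942 to 1.17, adjusted exact p = 0.415) and 21.4% of long-gene peaks (1.73, adjusted exact p = 3.11e-18). Repeats covered 29.3%, 29.6% and 28.2% of the eligible sequence of the 3 classes, in the same order. A peak of the conservative list was found within 100 bp for 88.9% of short-gene peaks, 86.9% of mid-length-gene peaks (1.21, adjusted exact p = 0.0245) and 87.9% of long-gene peaks (1.10, adjusted exact p = 0.322). The call against mid-length genes was lost in each replicate alone, with odds ratios of 1.15 and 1.17 and adjusted exact p of 0.136 and 0.0993. All tests of this paragraph are Fisher's exact test on peaks. Peaks of 1 gene or neighbourhood are not independent, so these p-values may be too small. This holds most for another summit within 5 kb, since neighbouring peaks each count the other.

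**Figure D3:**
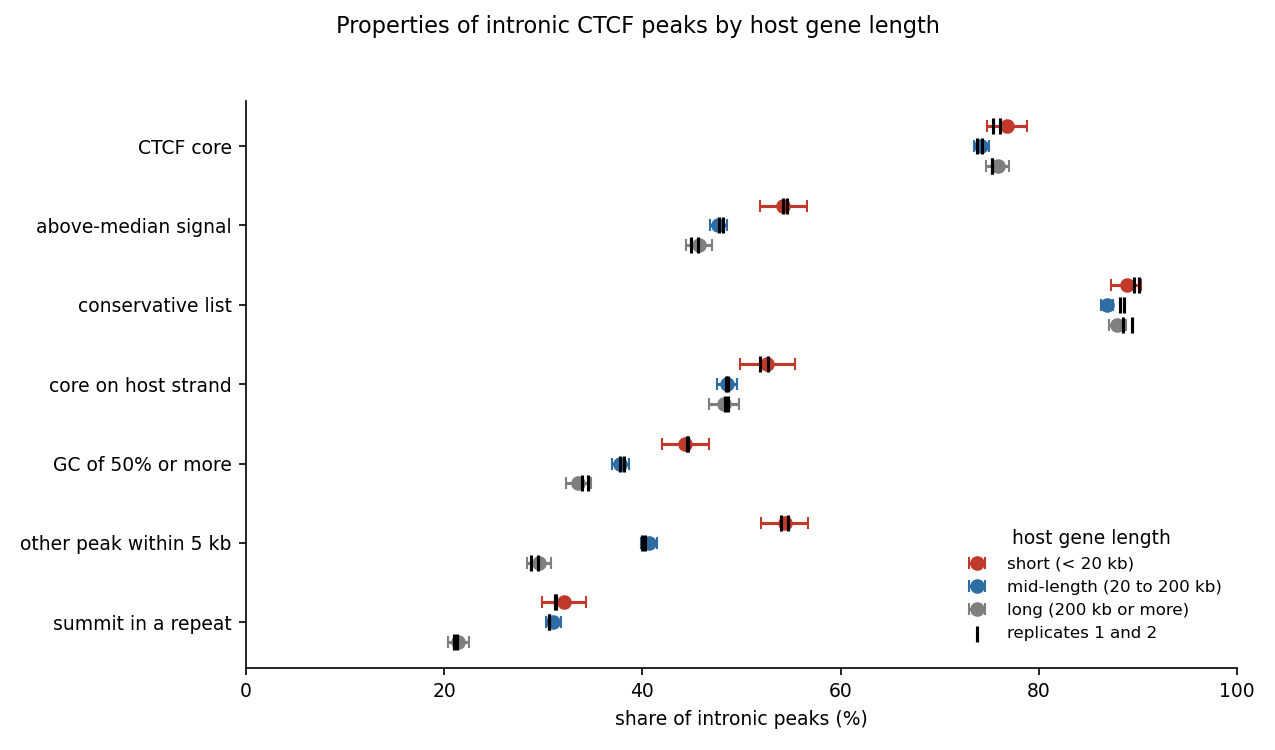
Shares of intronic peaks (%) with 7 properties in short, mid-length and long host genes. Points are the optimal list with exact 95% intervals, and black ticks are replicates 1 and 2 alone. The widest gap is in the share with another peak within 5 kb, at 54.3%, 40.7% and 29.5%.

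The share of short-gene peaks with the core differed along the host. In the first intron 70.3% of 539 peaks had the core, against 79.7% of 1209 peaks in later introns (odds ratio 0.602, 95% interval 0.477 to 0.759, adjusted exact p = 4.92e-05, Fisher's exact test). The replicates alone gave 71.0% and 70.2% in the first intron, against 78.3% and 77.5% in later introns. In hosts under 10 kb the call was lost (0.648, adjusted exact p = 0.160). A signal above the list median was found in 49.2% of first-intron peaks, against 56.5% of later ones (odds ratio 0.745, adjusted exact p = 0.00907). The signal call was lost in the conservative list (0.816, adjusted exact p = 0.0763), in replicate 2 alone (0.850, adjusted exact p = 0.159) and for summits over 2 kb from a start (0.895, adjusted exact p = 0.400). At 1 to 3 kb from the nearest start, 73.7% of 881 peaks had the core, against 80.05% of 867 farther away (odds ratio 0.697, adjusted exact p = 0.00360). This call was lost in hosts under 10 kb (0.867, adjusted exact p = 0.747), for summits over 2 kb from a start (0.818, adjusted exact p = 0.222) and with at most 1 mismatch (0.869, adjusted exact p = 0.199). For the signal the same split gave 52.1% against 56.4% (0.841, 95% interval 0.696 to 1.02, adjusted exact p = 0.0891).

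When each host was divided into 5 equal parts from its 5′ end, the density of short-gene peaks was 42.6, 42.6, 42.4, 44.6 and 48.7 per Mb of eligible intron, with intervals that overlapped throughout. The median signal was 64.8 in the first part, 69.1, 86.0 and 104.8 in the next 3, and 97.3 in the last. The share with the core ran in the same order at 64.2%, 71.0%, 81.1%, 83.8% and 80.8%. The start of the gene thus held as many peaks per Mb as the middle, but weaker ones with fewer cores. The median short-gene summit lay 656 bp from the nearest exon. The 244 summits within 142 bp of an exon, whose peaks of the commonest width reach into it, had a median signal of 111.9, against 79.8 for the rest.

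**Figure D4:**
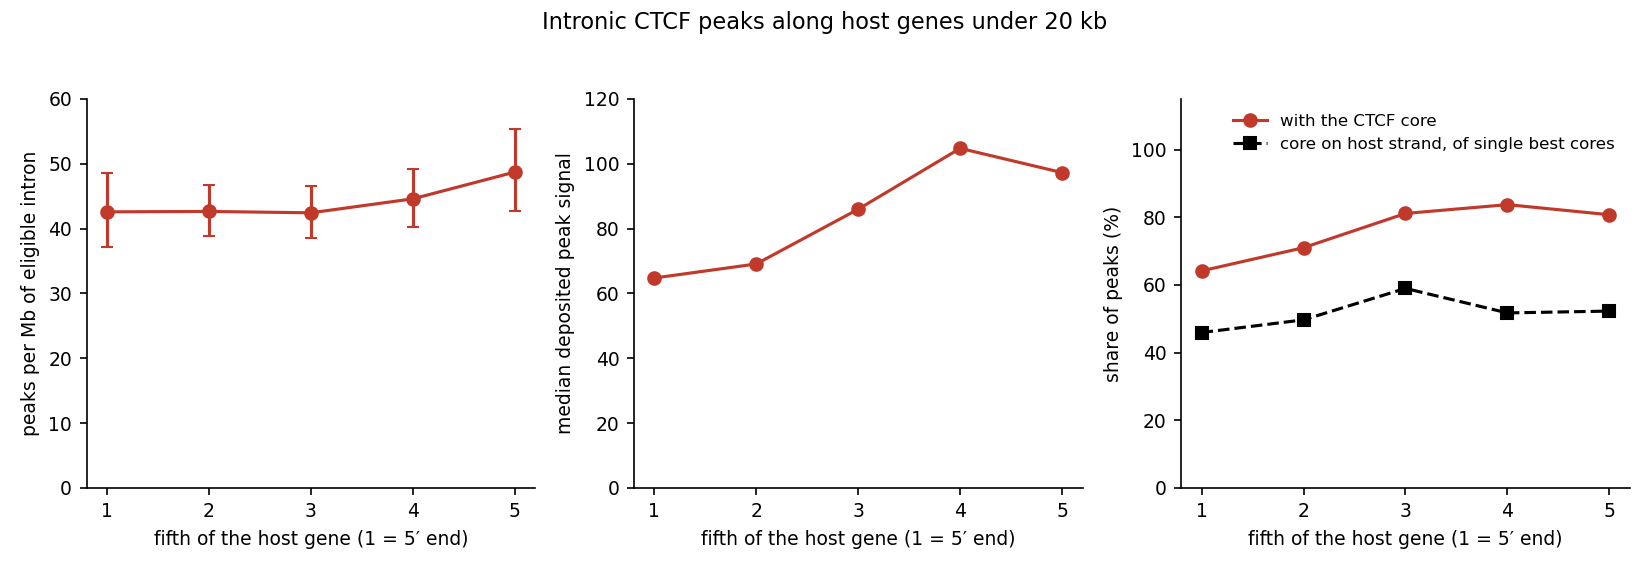
Short-gene intronic peaks by position in the host gene, in 5 equal parts from the 5′ end. Left, peaks per Mb of eligible intron with exact 95% Poisson intervals, flat within error up to 48.7 in the last part. Middle, median deposited signal, highest in the fourth part at 104.8. Right, share with the CTCF core, from 64.2% to 83.8%, and share of single best cores on the host's strand.

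Hosts of an intronic peak more often had a peak at an own transcript start as well. A summit within 1 kb of an annotated start was found in 599 of 1409 hosts (42.5%, exact 95% interval 39.9 to 45.1), against 2009 of 6747 eligible genes without an intronic peak (29.8%, 28.7 to 30.9). The odds ratio was 1.74 (1.55 to 1.962, adjusted exact p = 4.02e-19, Fisher's exact test on genes). Each replicate alone gave 42.6% in hosts, against 30.04% and 30.4% in the other genes. Any annotated start of a gene counted, and the number of starts per gene was not matched. With only the 5′ end of each gene, the shares were 34.4% and 24.8% (odds ratio 1.59, adjusted exact p = 1.58e-12, Fisher's exact test). The gap was present at each amount of eligible intron. It was 56.7% of 90 hosts against 29.04% of 2355 genes under 2 kb, and 47.0% of 317 hosts against 29.5% of 2052 genes at 2 to 5 kb. It was 41.7% of 605 hosts against 31.7% of 1637 genes at 5 to 10 kb, and 37.0% of 397 hosts against 28.4% of 703 genes at 10 kb or more.

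**Figure D5:**
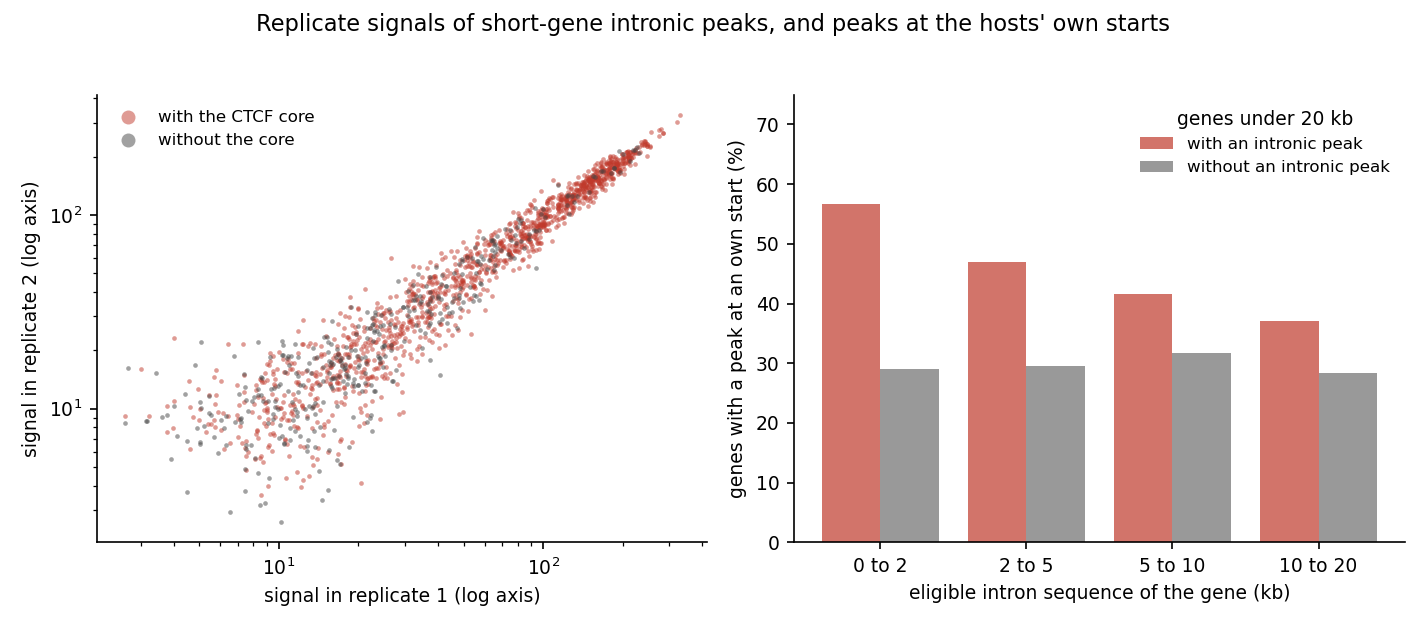
Left, deposited signal of the 1701 short-gene intronic peaks found in both replicates, replicate 2 against replicate 1 on log axes, split by the CTCF core. Right, share of genes under 20 kb with a peak within 1 kb of an own start, with and without an intronic peak, by kb of eligible intron, from 56.7% against 29.04% to 37.0% against 28.4%.

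Where both the intronic and the start peak of a short gene had a single best core, the strands of the cores could be compared. There were 296 such pairs from 244 start peaks, with a median gap of 5.05 kb. Both cores lay on the same strand in 184 pairs (62.2%, exact 95% interval 56.4 to 67.7), faced each other in 48 (16.2%) and pointed apart in 64 (21.6%). In mid-length genes 48.0% of 2691 pairs and in long genes 49.8% of 1198 pairs lay on the same strand. Within 10 kb, the shares were 62.8% of 250 pairs in short genes, 52.5% of 577 in mid-length genes and 47.7% of 65 in long genes. Pairs share peaks, so these shares are given with no test. The interval counts pairs as independent, so it may be too narrow and does not stand in for a test. Neighbouring intronic peaks of 1 short gene lay a median 2.72 kb apart (339 pairs). Of the 188 with single cores on both sides, 53.2% lay on the same strand, 18.1% faced each other and 28.7% pointed apart.

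The genes with the strongest intronic peaks had varied roles. Pink1 had a signal of 654.9, with 328.5 and 329.3 in replicates 1 and 2. Scd2, a desaturase that makes monounsaturated fatty acids, had 557.1 in the second of 5 introns (279.5 in each replicate). Fgd2, an activator of the GTPase Cdc42, had 548.7 in the ninth of 15 introns, with 283.9 and 265.9 in the replicates. Acod1, which makes the antimicrobial metabolite itaconate, had 547.4 in its last intron, with 274.5 and 276.6. Aanat, the enzyme of melatonin synthesis, had 524.2, with 274.4 and 254.8. Eno1, the glycolytic enolase, had 483.9, with 243.8 and 241.9. The 15 strongest peaks also included Cpsf4l, 1700017B05Rik, Adcy4, Gm20219, Gcat, Sec1, Vwa7 and Tfap4, at 476.2 to 547.5. All 15 were within the strongest 554 peaks of each replicate list. These genes serve mitochondrial quality control, lipid and sugar metabolism, immune cells and transcription.

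Genes with the most intronic peaks were Rsph6a and Ankrd46, with 4 each. Rsph6a encodes a radial spoke protein of cilia and flagella, and all its peaks lay in the last intron, with signals of 270.2, 172.2, 157.4 and 30.02. In replicate 1 these 4 had 136.1, 84.2, 75.4 and 12.98, and in replicate 2 they had 133.1, 87.3, 82.3 and 17.1. The order was thus the same in both. Ankrd46, an ankyrin repeat gene, had weaker peaks at 104.9, 36.8, 27.9 and 18.9. The last of these had a summit within 100 bp in replicate 2 (12.7) but none in replicate 1 or the conservative list. Genes with 3 peaks with the highest summed signal were Tjp3, a tight junction scaffold, with 398.4, 352.5 and 158.6, P2rx1, an ATP-gated ion channel, with 345.0, 298.6 and 225.3, and Sema6b, an axon guidance semaphorin, with 338.3, 263.3 and 253.7. In genes with several peaks, the strongest was a median 3.15 times the weakest.

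Gene lists were read against the background of 17.3%. Lists of liver function lay between 6.25% and 23.5%. Of the plasma protein, coagulation and complement genes, 11 of 60 held an intronic peak. The highest signals there were in Masp2, a complement protease (236.0, with 123.2 and 112.3 in the replicates), and Itih4, a plasma protease inhibitor (175.1, with 82.3 and 94.0). Afp, the fetal plasma protein of liver, had a weak peak of 31.6, with 18.1 and 13.5. Counts were 1 of 16 for apolipoproteins (Apol8), 2 of 13 for hepatocyte transcription factors (Creb3l3 and Tbx3) and 4 of 33 for cytochrome P450 families 1 to 4. For the last, Cyp2u1 had 232.0 and Cyp2f2 208.4. Cholesterol and bile acid genes had 4 of 17, led by Pmvk, a kinase of the mevalonate pathway, at 315.5. Glycolysis and gluconeogenesis genes had 3 of 19, amino acid and urea cycle genes 3 of 18 and iron, heme and globin genes 3 of 16. The iron list held Tfr2, a transferrin receptor that senses iron in liver, at 147.9, and the heme synthesis genes Alad at 75.1 and Alas1 at 28.3.

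Regulators of blood formation had 6 of 16 genes with an intronic peak (37.5%), the highest share of the lists. The strongest lay in the last intron of Nfe2, a transcription factor of erythroid cells and megakaryocytes, with a signal of 464.3 and with 235.8 and 229.5 in the replicates. Gfi1b, a repressor in the same lineages, had 167.5, with 94.9 and 71.4. Kel, a red cell membrane protein, had 140.2, with 64.8 and 74.5. Weaker peaks lay in Ermap at 98.4 and in Gata2 at 18.1. The genes of this list had a median of 5.61 kb of eligible intron, against 3.85 kb over all eligible genes. Genes of neutrophils, macrophages and lymphocytes had none of 24, with a median of 2.47 kb of eligible intron. Such a count allows a share of up to about 12.5%, taken as 3 over 24 and not as an exact interval. Since the share of genes follows the length of intron, density gave another order than the share. Per Mb of eligible intron, the blood list had 63.4 peaks, against 43.7 over all eligible genes. Hepatocyte transcription factors, at 15.4% of genes, had 91.8 per Mb, from 4 peaks in 2 genes, and iron, heme and globin genes had 85.7, from 4 peaks in 3 genes. No list was tested, and the lists were chosen with results of these data known.

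By share of genes, those for general cell functions and for signalling lay on both sides of the background. Respiratory chain subunit genes had 15 of 60, with Cox6a1 at 385.6, Sdhb at 352.7 and Ndufa7 at 343.3. Mitochondrial ribosomal protein genes had 12 of 56, with Mrps11 at 404.5, Mrpl45 at 380.7 and Mrpl21 at 283.1. Proteasome subunit genes had 6 of 27 and cytosolic ribosomal protein genes 3 of 30, with Rpl26 at 196.1. Replication helicase and DNA polymerase genes had 3 of 18, led by Cdc6, which loads the helicase, at 239.9. Splicing factor and hnRNP genes had 3 of 40, all weak, at 16.1 to 34.8. Zinc finger genes named Zfp had 24 of 188. Wnt, Fgf and TGF-beta family ligand genes had 7 of 37, chemokine genes 3 of 23, keratin genes 3 of 47 and Hox genes 1 of 20 (Hoxb6, 156.7). Major histocompatibility H2 genes had 3 of 31, with H2-Eb1 at 300.2, claudin and gap junction genes 1 of 18 (Cldn15, 364.5), CTCF and cohesin machinery genes 1 of 5 (Cdca5, 35.2) and imprinted genes 1 of 7 (Blcap, 34.1). Some lists below the background by share of genes lay above it by density. Cytosolic ribosomal protein genes had 71.9 peaks per Mb, from 3 peaks, and H2 genes 62.1, from 5 peaks, against 43.7 over all eligible genes. Their genes offered a median of 0.636 and 1.53 kb of eligible intron. Densities from so few peaks are uncertain, and none was tested. Respiratory chain genes were above the background by both measures, at 74.4 per Mb from 17 peaks. Splicing factor genes were below it by both, at 18.3 per Mb from 3 peaks.

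A summit within 100 bp was present in both replicate lists for 1701 short-gene peaks (97.3%), against 97.4% of peaks in mid-length genes and 98.1% in long genes. Since the optimal list was itself derived from the replicates, a high share is built into it. Of the other short-gene peaks, a summit was present in replicate 1 alone for 25, in replicate 2 alone for 19 and in neither for 3. Across the 1701 peaks, which share their libraries, the signals of both replicates had a Spearman's rho of 0.968. The strongest 349 peaks (248.3 to 654.9) were all found in both replicates, had the core in 94.3% and a GC share of at least 50% in 65.3%. The weakest 349 (4.21 to 28.7) were found in both in 86.8%, had the core in 57.6% and were GC-rich in 41.5%. The SD of the log2 ratio of replicate 1 to replicate 2 was 0.12 in the strongest 349 and 0.85 in the weakest 349, so single values of weak peaks carry a far larger error. The weakest 3 were Abcb8 at 4.21, Capn10 at 4.24 and Gm34653 at 4.79, and of these only Capn10 had a summit in a replicate list (8.23 in replicate 2). They lay 216, 200 and 205 bp from another summit of the optimal list, in the same order, less than the median peak width of 284 bp. Whether they are sites separate from these neighbours was not tested.

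Peaks next to the limits of the rule are given with their signals as a description only. The longest hosts were Medag (19.975 kb, signal 91.0), Gpr179 (19.969 kb, 120.7) and Eif3c (19.957 kb, 68.4). Just outside lay Lrrc42 (20.019 kb, with peaks of 32.4 and 236.7). Nearest to a start on the inside were Nyap1 (88.2) and Btnl1 (71.8), at 1001 bp each, and just outside lay peaks in Dnajc22 at 1000 bp (73.1), Izumo2 at 998 bp (22.1) and Foxa1 at 998 bp (127.8). Of the 1748 peaks, 18 lay in more than 1 protein-coding gene under 20 kb and 65 also lay inside a non-coding gene.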

How the data were processed

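CTCF ChIP-seq peaks of newborn mouse liver, 1 group of 2 replicates, were taken as deposited in narrowPeak format on mm10. Per the text deposited with the samples, each replicate and the pooled alignments gave a list, and the optimal and conservative lists were derived from these by the irreproducible discovery rate. No label or header names the aligner, peak caller or thresholds. The signal per peak is the authors' deposited value on an unstated scale, used to describe and rank within a list. The summit is the peak's start plus the offset the authors deposited. Read counts were not used here, so library depth is unknown and no error of a single signal can be given beyond the replicates.

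Summits were set against GENCODE M21 on GRCm38, which mm10 names. Mid-length and long hosts were chosen by the same rule apart from gene length. Lists were matched by summits within 100 bp, and replicate lists were limited to their strongest 57220 peaks when analysed alone. The 14-base CTCF core was scanned on both strands and tested on simulated data, as were the tests. Shares were compared with Fisher's exact test or an exact binomial test, both two-sided, in Python 3.11.15 with scipy 1.17.1, with Benjamini-Hochberg adjustment over 20 tests and a threshold of 0.05. Shares have Clopper-Pearson 95% intervals, for counting error only. Sequences and repeat masks are those of the RefSeq copy of GRCm38. The alternatives were 12 planned and 6 added after the data were seen. Genes named are the 15 strongest peaks, the 5 genes with most peaks, up to 3 hosts of each gene list, the 3 weakest peaks and those next to the limits. Afp, Ermap, Gata2, Rtn2, Ube2s, Prss32 and the choice of the commonest core and the fifth position were added after their values were seen. The peaks, the gene lists and the tests were chosen with earlier results of these data known. Some items are not reported here.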

Additional observations from a re-analysis of the deposited data

How the results depend on the processing

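Of the values recomputed under the alternatives, 138 kept their direction and their side of the threshold, 23 lost it, 3 gained it and 14 changed direction. All values here are odds ratios, short-gene peaks over the others or the first group named over the second, except where a share is given. In each replicate alone, core share against mid-length genes was 1.08 to 1.10, conservative share against mid-length genes 1.15 to 1.17 and above-median share of the first intron 0.785 to 0.850, and the calls against mid-length genes were lost in both and that of the first intron in replicate 2 alone. With hosts under 10 kb, these passed no longer: core share 1.18, above-median share 1.26, conservative share 1.21 and sense core share 1.02 against mid-length genes, sense core share 1.03 against long genes, and core share of the first intron 0.648 and of 1 to 3 kb 0.867. There, repeat share against mid-length genes turned to 0.925 and the sense share to 49.0%. With summits over 2 kb from starts, core share against long genes passed at 1.18, and above-median share of the first intron (0.895) and core share of 1 to 3 kb (0.818) did not. With at most 1 mismatch, core share against long genes turned to 0.972 and that of 1 to 3 kb was lost at 0.869. Among summits 1 to 10 kb from a start, conservative share (1.19) and sense core share (1.14) against mid-length genes and sense core share against long genes (1.14) were lost, and repeat share against mid-length genes turned to 0.994. In the conservative list, above-median share of the first intron was lost at 0.816.

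With the strongest peak per gene, the comparisons against long and mid-length genes turned to 0.440 and 0.773 for core share, 0.214 and 0.619 for above-median share and 0.138 and 0.555 for conservative share. This setting takes the maximum over more peaks in longer genes by construction. Repeat share against mid-length genes passed there at 1.24, and above-median share of 1 to 3 kb at 0.802. With the leftmost peak per gene, against long genes core share turned to 0.916 and conservative share to 0.967, and against mid-length genes core share (1.05) and conservative share (1.06) were lost and repeat share turned to 0.981. Among GC-poor peaks, core share was 0.9996 against long genes and lost at 1.11 against mid-length genes. Among peaks without the core, above-median share against mid-length genes was lost at 1.27. The cause of these changes was not tested. No paired analysis was possible because the series has 1 group. Weak signals carry a large error, since the weakest 349 short-gene peaks had an SD of 0.85 between replicates on the log2 scale.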
